A study of Mus musculus with 4 samples.

Results

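Neurons that carry *Mrgprd*, a receptor of the Mas-related family, formed one of the small-diameter classes among sorted cells of mouse dorsal root ganglia (DRGs). In a cell of this kind *Mrgprd* reached at least 3 unique molecular identifiers (UMIs) per 10000 UMIs of the cell (CP10K), *Mrgpra3* and *Nppb*, which mark the neighbouring nonpeptidergic classes, stayed below 1 CP10K, and *Sprr1a*, a gene switched on in injured sensory neurons, did not exceed 1.718 CP10K. Of 17836 cells with at least 1500 genes, at least 5000 UMIs, and at most 10% mitochondrial UMIs, 790 met this rule. They are called Mrgprd neurons here. The values of these 4 genes chose the cells, so they are given as a description and were not tested.

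The cells came from *Pirt*EGFPf mice on a C57BL/6 background, 7 to 8 weeks old, in which a membrane-bound green fluorescent protein replaces the coding sequence of *Pirt* on one allele and so labels most sensory neurons. Male and female mice had either chronic constriction injury (CCI) of both sciatic nerves or sham surgery, the lumbar ganglia that feed the nerve were taken at day 7, and GFP+ cells were sorted. All 4 groups share the reporter and the loss of one *Pirt* allele, and no group lacks them. Each group was 1 library that pooled 20 DRGs from 5 mice, so the spread between mice could not be measured. Because littermates were given one kind of surgery whatever their sex, litter and surgery cannot be told apart.

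Mrgprd neurons are unmyelinated nociceptors that end in the outermost skin. As background, they bind isolectin B4, depend on Ret and the GDNF-family co-receptor Gfra2 in adult life, respond to the Mrgprd ligand β-alanine, and are needed for part of the response to noxious mechanical stimuli. Their cell bodies hold little of the classical pain peptides, and they are counted as the nonpeptidergic class NP2 in common schemes of DRG neurons.

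Values are given for the male and then the female library, the sham pair (Male-Sham and Female-Sham) before the CCI pair (Male-CCI and Female-CCI). Mrgprd neurons numbered 349, 273, 103, and 65, with a median of 67439, 45505, 82948, and 63911 UMIs per cell. Summed over these cells the libraries held 22261724, 11555963, 7846956, and 3795150 UMIs, so that 3 UMIs, the limit that a count of 0 allows, amounted to 0.135, 0.260, 0.382, and 0.790 CPM, the UMIs of a gene per 1000000 UMIs of its cell group. Pairs of libraries shared 215 to 513 cell barcodes. No barcode belonged to an Mrgprd neuron in more than 1 library, but 42, 6, 36, and 2 Mrgprd neurons carried a barcode that another library also held as some cell. Doublet calling by Scrublet's automatic threshold marked only 2, 121, 0, and 0 cells and was not used. Of the cells with the 15% highest doublet scores, 35, 23, 6, and 1 were Mrgprd neurons.

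The level of *Mrgprd* was distributed in 2 groups of cells, one without a UMI and one around the cut of the gate. In Male-Sham 160 cells lay between 3 and 4 CP10K and 130 between 2 and 3, and in Female-Sham the numbers were 145 and 253. In Male-CCI 48 cells lay just above the cut and 40 just below, and in Female-CCI 36 and 57. The lowest Mrgprd neuron of each library was at 3.0006, 3.0011, 3.0039, and 3.01 CP10K, and the nearest cell outside was at 2.99, 2.99, 2.99, and 2.92 CP10K. The cut thus ran through the upper group of cells, and a larger part of that group fell below it in both female libraries. The limit on *Sprr1a* removed 0, 0, 2, and 1 cells that had enough *Mrgprd*, although 1.89%, 3.6%, 53.4%, and 51.6% of all neurons were past it. *Sprr1a* was not absent below the limit, since 4.01%, 3.66%, 69.9%, and 60% of Mrgprd neurons had at least 1 *Sprr1a* UMI.

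**Figure D1:**
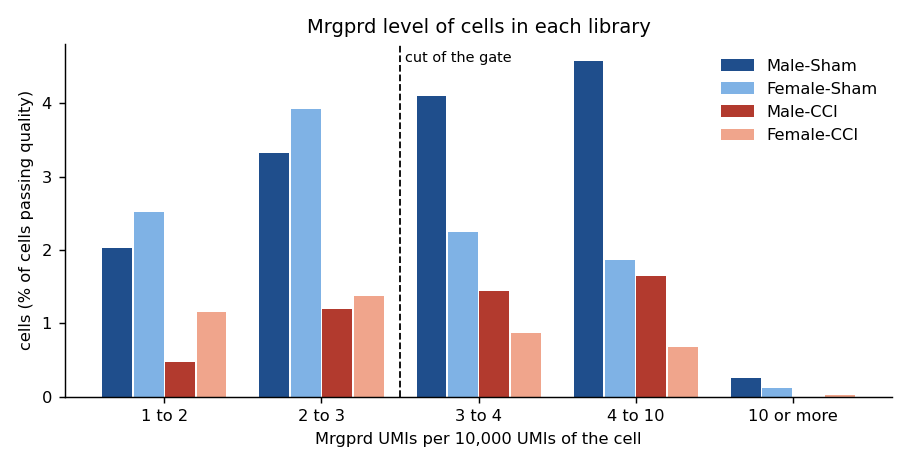
Cells in 5 ranges of *Mrgprd* (UMIs per 10000 UMIs of the cell, x axis) as a percentage of the cells of each library that passed quality filters (y axis), with a dashed line at the cut of 3. In both female libraries the bar below the line, between 2 and 3, is taller than the bar just above it, 253 against 145 cells in Female-Sham.

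The label of the class was compared with 3 further markers that the gate did not use. All 3 are among the cluster markers that the study had chosen on these samples for the same class. Their levels describe the cells and are not an independent check of the label. *Grik1* (chromosome 16, 87895900 to 88290265, GRCm38), a kainate receptor subunit, lay at 621, 589, 583, and 587 CPM in Mrgprd neurons and at 34.7 to 55.4 CPM in the other neurons within the *Sprr1a* limit. *Prkcq* (chromosome 2, 11172108 to 11301222), a protein kinase C isoform, lay at 139, 134, 106, and 127 CPM against 2.12 to 3.26 CPM. *Lpar3* (chromosome 3, 146220963 to 146286186), a lysophosphatidic acid receptor, lay at 114, 88.2, 56.5, and 65.3 CPM against 2.73 to 4.75 CPM. All 3 markers were thus higher in Mrgprd neurons than in other spared neurons in every library.

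At the level of single cells the markers differed. *Grik1* was found in 99.1%, 99.6%, 100%, and 100% of Mrgprd neurons, and *Prkcq* in 91.7%, 90.5%, 89.3%, and 89.2%. *Lpar3* was found in only 68.8%, 66.3%, 53.4%, and 52.3%, with a median of 0.407, 0.288, 0.0974, and 0.110 CP10K and an upper quartile of 1.95, 1.48, 0.569, and 1.26 CP10K. *Lpar3* therefore varied more among Mrgprd neurons than the other markers, with cells that had none beside cells that had much. Cells gated as satellite glia (*Apoe* at least 300 CP10K, *Fabp7* at least 50 CP10K, *Tubb3* at most 5 CP10K), which should lack these genes, gave a background share of 11.4%, 5.79%, 3.26%, and 1.33% for *Lpar3* at a median of 5429, 4442, 5217, and 4531 UMIs. With Mrgprd neurons thinned to 5000 UMIs per cell, *Lpar3* was found in 32.7%, 28.2%, 15.5%, and 24.6% of them.

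Markers of other classes were not all absent, and not all lists were lower than in other spared neurons. The 6 markers of Mrgpra3 neurons other than *Mrgpra3* summed to 133, 127, 150, and 152 CPM in Mrgprd neurons. Other spared neurons had 193, 161, 167, and 130 CPM, less in Female-CCI, and 1 of the 6 was at 0 in Mrgprd neurons of every library. The 6 of Nppb neurons other than *Nppb* summed to 35.8 to 61.7 CPM against 160 to 310 CPM. The 6 Schwann cell markers summed to a level like that of other spared neurons, at 429, 407, 398, and 423 against 397, 425, 391, and 443 CPM. Of these 6 genes 0, 2, 4, and 4 were at 0 in Mrgprd neurons, so the sum does not stand for the whole list. The 7 peptidergic markers summed to 1894 to 2869 CPM against 12871 to 14451 CPM in other spared neurons, most of it *Calca* (CGRP), with 1513 to 2404 CPM in Mrgprd neurons. The 12 satellite glia markers summed to 732, 940, 569, and 531 CPM, and the highest single cell reached 294 CP10K for the 12 genes together. Of the 11 immune markers 1, 5, 8, and 8 were at 0, and the list summed to no more than 3.43 CPM. Of these lists the peptidergic one summed highest and was above both sham values in both CCI libraries, whereas the satellite glia list was below both sham values there. In the test of CCI against sham described below, 0 of 6 tested peptidergic markers were called, and 5 of 11 satellite glia markers were called lower. CCI and sham libraries did not overlap for 6053 of all 11673 tested genes.

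Cells with 1 to 3 CP10K of *Mrgprd* that met the other limits, 785 in number, resembled Mrgprd neurons in the other markers. Their *Grik1* lay at 460, 502, 478, and 513 CPM, their *Prkcq* at 96.0, 107, 88.6, and 102 CPM, and their *Lpar3* at 88.6, 106, 85.1, and 74.8 CPM. They were deeper than Mrgprd neurons in every library, with a median of 77336, 56246, 89939, and 72304 UMIs. The 19 cells at 10 CP10K or more, in contrast, were shallow, with a median of 9495 UMIs in Male-Sham and 7829 UMIs in Female-Sham.

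**Figure D2:**
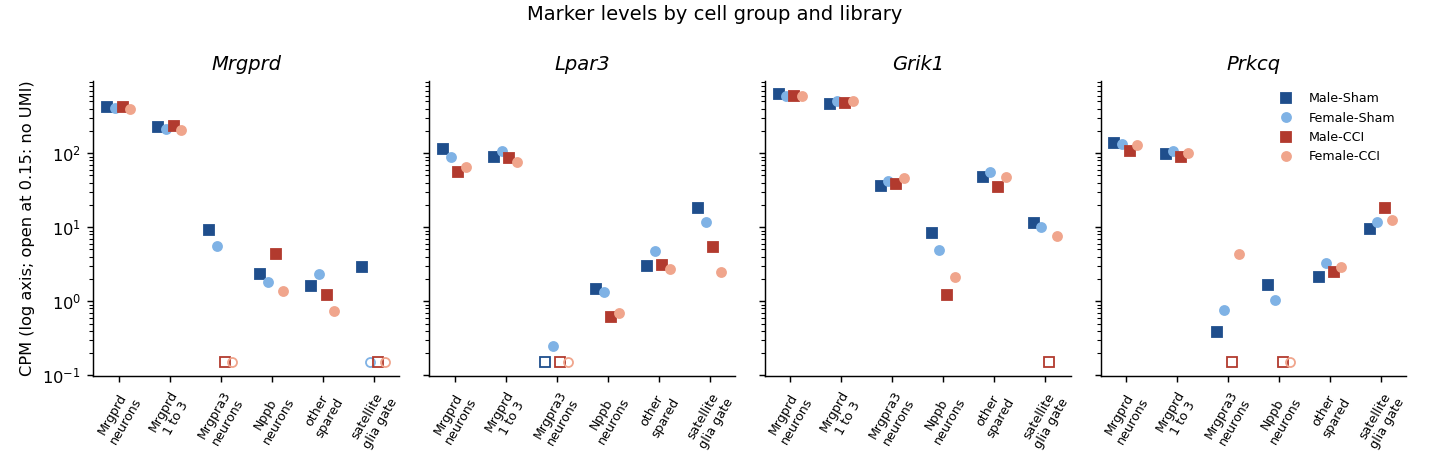
Levels of *Mrgprd*, *Lpar3*, *Grik1*, and *Prkcq* (CPM, log axis) in Mrgprd neurons, cells with 1 to 3 CP10K of *Mrgprd*, Mrgpra3 neurons, Nppb neurons, other spared neurons, and the satellite glia gate, 1 point per library and open points where no UMI was found. All 4 genes are highest in the left 2 groups, with *Grik1* at 583 to 621 CPM in Mrgprd neurons.

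The 2 classes closest to Mrgprd neurons, gated in the same way on *Mrgpra3* (157 cells) and on *Nppb* (256 cells), were set beside them. These groups were cut from the same cells by measured genes, so the counts of genes that differ describe the gates and are not independent evidence. With library as a block, edgeR's quasi-likelihood test at an adjusted p below 0.05 and an absolute log2 difference above 0.5 called 2483 of 10508 genes between Mrgprd and Mrgpra3 neurons, 23.6%, and 3651 of 10885 genes between Mrgprd and Nppb neurons, 33.5%. The shares higher and lower in Mrgprd neurons were 11.2% and 12.4% in the first and 16.0% and 17.5% in the second. Of the 18 markers of Mrgprd neurons outside the gate, 17 could be tested in each. Against Mrgpra3 neurons 13 were higher and 0 lower, with a median log2 difference of 2.63 against 0.01 over all genes. Against Nppb neurons 14 were higher and 1 lower, with a median of 4.17 against -0.01.

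*Gfra2*, the neurturin co-receptor, lay at 346, 365, 289, and 305 CPM in Mrgprd neurons and at 0.961 to 3.75 CPM in Mrgpra3 neurons. *Kcnab1*, a potassium channel β subunit, lay at 111, 102, 84.9, and 89.6 CPM and at 0 to 1.44 CPM in Mrgpra3 neurons. *Ptger3*, a prostaglandin E receptor, lay at 20.9 to 27.7 CPM and had no UMI in Mrgpra3 neurons of 3 libraries. All of these were higher in Mrgprd neurons of every library. In the other direction *Rspo1*, a secreted Wnt enhancer, lay at 141 to 178 CPM in Mrgpra3 neurons and at 0.263 to 0.865 CPM in Mrgprd neurons, and *Ovol2*, a zinc-finger factor, at 38.4 to 73.0 CPM and at no more than 0.433 CPM.

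*Trpa1*, the irritant receptor, lay at 70.2, 84.8, 68.9, and 84.8 CPM in Mrgprd neurons, at 5.75 to 12.5 CPM in Mrgpra3 neurons, and at 17.8 to 18.9 CPM in Nppb neurons. *Gap43*, a growth cone protein, went the other way, with 44.6 to 59.8 CPM in Mrgprd neurons, 670 to 1108 CPM in Mrgpra3 neurons, and 324 to 999 CPM in Nppb neurons. Against Nppb neurons the peptide gene *Sst* was at 0.0898, 0.0865, 0, and 0 CPM in Mrgprd neurons and at 718 to 1055 CPM in Nppb neurons. *Agtr1a*, an angiotensin receptor, lay at 21.4, 25.3, 14.02, and 23.5 CPM and had no UMI in Nppb neurons of any library. Levels of the same gene only are compared here, since CPM values carry no correction for transcript length.

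Of neurons (*Tubb3* at least 3 CP10K), Mrgprd neurons made up 9.17% and 4.26% in the sham pair and 3.15% and 1.56% in the CCI pair. The 2 Mrgprd neurons below the *Tubb3* limit were left out. The exact 95% binomial intervals, which cover counting error only, were 8.27% to 10.1%, 3.78% to 4.78%, 2.58% to 3.81%, and 1.20% to 1.99%. Both CCI shares were below both sham shares, but the male and the female sham library also differed by more than counting error. With 1 library per sex and surgery the share was not tested.

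The share depended on the cut and on the neurons it was taken over. With *Mrgprd* at 1 CP10K or more it was 14.6%, 10.8%, 4.86%, and 4.11%. Taken over neurons within the *Sprr1a* limit alone it was 9.34%, 4.42%, 6.76%, and 3.22%, and the surgeries overlapped. With both changes it was 14.9%, 11.2%, 10.4%, and 8.5%, and the intervals of Female-Sham and Male-CCI overlapped. Only 3 cells had *Mrgprd* past the gate and *Sprr1a* past its limit, and a fall of *Mrgprd* in injured cells and a loss of such cells cannot be told apart by this gate.

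**Figure D3:**
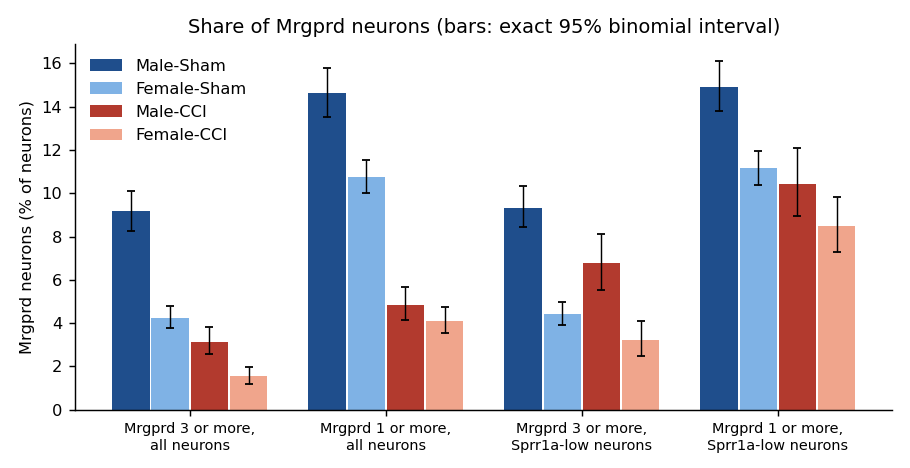
Mrgprd neurons as a percentage of neurons (y axis) in each library with *Mrgprd* at 3 or at 1 CP10K or more, over all neurons and over neurons within the *Sprr1a* limit. Bars are shares and whiskers exact 95% binomial intervals; over all neurons the CCI bars are lower, 3.15% and 1.56% against 9.17% and 4.26%, and over *Sprr1a*-low neurons with the cut at 3 sham and CCI overlap, 6.76% in Male-CCI against 4.42% in Female-Sham.

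The comparison of CCI with sham asked which genes change in Mrgprd neurons that carry little *Sprr1a* after nerve injury. UMIs were summed over the cells of each library, and 2 CCI libraries were compared with 2 sham libraries, the sexes serving as replicates. The test called 436 of 11673 genes, 3.74%, with 218 higher and 218 lower in CCI, 1.87% in each direction. The median absolute log2 change of the called genes was 0.74, and 431 of 436 had the same direction in male and female libraries. The genes were called on these same libraries, so the shared direction follows largely from the selection and is no replication across sexes. CCI and sham libraries did not overlap for 430 of the 436 called genes, but also for 6053 of all 11673 tested genes. When all cells with a barcode held by another library were left out, 256 genes were called, and among neurons without any *Sprr1a* UMI, of which CCI gave only 31 and 26, 54 were called. In the following, CPM values of this comparison are scaled by TMM, changes are log2 CCI over sham with the standard error (SE), and adjusted p-values are from edgeR over all 11673 genes.

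Of the 18 markers of Mrgprd neurons outside the gate, 0 rose and 1 fell, with a median change of -0.20 against 0.00 over all genes. The one that fell was *Lpar3*. It lay at 114 and 88.8 CPM in sham and at 56.8 and 65.2 CPM in CCI libraries. The change was -0.75 ± 0.09 (SE, n = 2 libraries per surgery, edgeR adjusted p = 1.57e-10). Among neurons without a *Sprr1a* UMI *Lpar3* changed by -1.24 and was no longer called (edgeR adjusted p = 0.147).

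The other 17 markers were not called, but only 3 of the 18 had a positive change, and 10 had an unadjusted edgeR p below 0.05. *Gfra2* lay at 344 and 367 CPM in sham and at 291 and 305 CPM in CCI libraries, a change of -0.26 ± 0.07 (edgeR adjusted p = 0.00415) that stayed under the limit on fold change. *Grik1* lay at 617 and 593 CPM in sham and at 587 and 586 CPM in CCI libraries, a change of -0.05 ± 0.07. *Prkcq* lay at 138 and 135 against 107 and 127 CPM, a change of -0.24 ± 0.08 that stayed under the limit on fold change (edgeR adjusted p = 0.0354). *Mrgprd* itself, held by the gate, lay at 423, 404, 427, and 396 CPM. Of 49 tested cluster markers that the study had chosen on these samples for the same class, 0 rose and 1 fell, *Lpar3* again, and this list is not independent of the data.

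**Figure D4:**
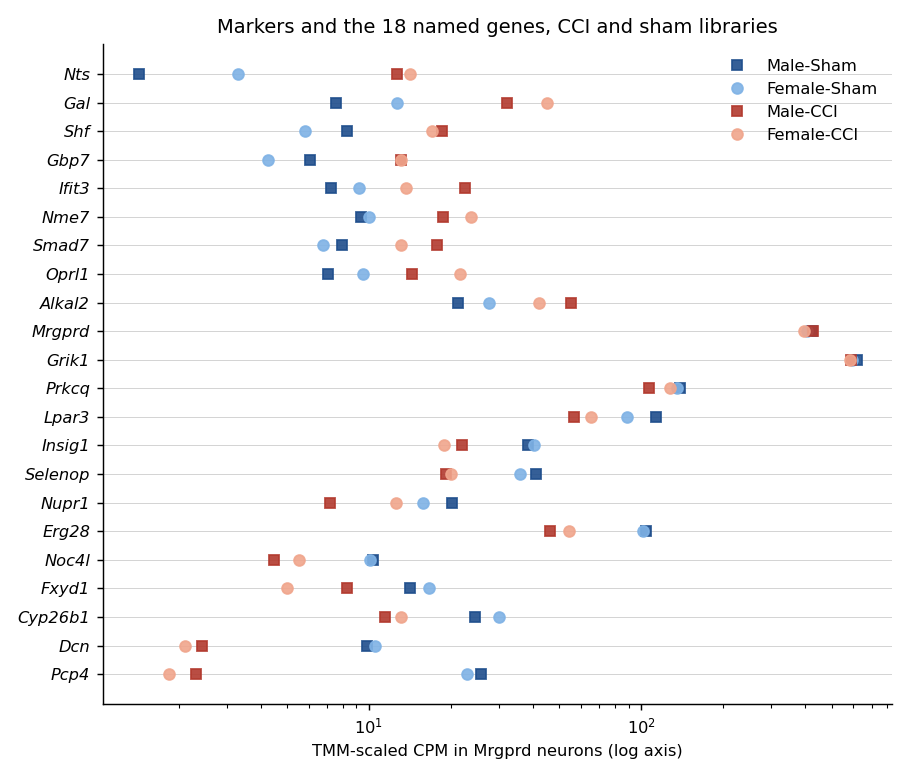
TMM-scaled CPM (log axis) of the 4 markers and of 18 genes with the largest rises and falls among called genes at 10 CPM or more in Mrgprd neurons, 1 point per library, blue for sham and red for CCI, squares for male and circles for female. Sham and CCI points are separate for all 18 called genes, from *Nts* (1.43 and 3.31 against 12.7 and 14.2) at the top to *Pcp4* (25.8 and 22.9 against 2.31 and 1.84) at the bottom. They are separate for 430 of all 436 called genes and for 6053 of 11673 tested genes.

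Few ion channel genes passed the test. Of 12 tested sodium channel subunits 0 rose and 1 fell, with a median change of -0.17. Only 4 of the 12 had a positive change, and 7 had an unadjusted edgeR p below 0.05. *Scn4b*, a β subunit, lay at 23.5 and 19.5 CPM in sham and at 16.6 and 10.5 CPM in CCI libraries (-0.60 ± 0.14, edgeR adjusted p = 0.000984). Of 49 potassium and HCN channel genes 0 rose and 3 fell, with a median of -0.07, and 16 had an unadjusted edgeR p below 0.05. They were the two-pore channel *Kcnk2* (-1.54 ± 0.53), the G-protein-gated channel *Kcnj3* (-0.72 ± 0.22), and the M-current subunit *Kcnq5* (-0.54 ± 0.19), with edgeR adjusted p-values of 0.0356, 0.0129, and 0.0439. All 3 were low, and none was called by DESeq2 or, with edgeR, among neurons without *Sprr1a* UMIs, where *Kcnk2* changed by 0.06.

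None of 13 tested calcium channel subunits and none of 11 tested glutamate receptor genes was called by edgeR, and of 16 TRP, Piezo, and acid-sensing channel genes 1 was, the osmosensitive channel *Tmem63a* (-0.66 ± 0.20, edgeR adjusted p = 0.0151). At an unadjusted edgeR p below 0.05 stood 1 of the calcium channel and 3 of the glutamate receptor genes, and DESeq2 called 0 of either. *Trpa1* lay at 69.7 and 85.4 CPM in sham and at 69.4 and 84.7 CPM in CCI libraries, which overlapped. Among 11 tested ATP receptors and ectonucleotidases 1 fell, the ADP receptor *P2ry1* (-0.64 ± 0.22, edgeR adjusted p = 0.0341). Of 5 tested Mrgpr receptors 0 were called by edgeR or DESeq2, and 1 had an unadjusted edgeR p below 0.05. The falls of *Scn4b*, *Kcnk2*, *Kcnj3*, *Kcnq5*, *Tmem63a*, and *P2ry1* kept their direction but were not called without the cells whose barcode another library held, with edgeR adjusted p-values from 0.067 for *Kcnj3* to 0.117 for *P2ry1*. After thinning to 5000 UMIs *P2ry1* changed by 0.70, in the other direction, and was not called (edgeR adjusted p = 0.648).

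Receptors that inhibit neurons moved in both directions, with 2 of 8 called higher and 1 lower. *Oprl1*, the nociceptin receptor, lay at 7.05 and 9.49 CPM in sham and at 14.4 and 21.6 CPM in CCI libraries. It rose by 1.09 ± 0.17 (edgeR adjusted p = 6.12e-08), and no UMI of it was found in the glia gate of any library. There a count of 0 allows 2.86, 5.04, 5.44, and 7.53 CPM. *Oprm1*, the µ-opioid receptor, lay at 3.30 and 2.96 against 5.90 and 5.00 CPM (0.81 ± 0.27, edgeR adjusted p = 0.0252). *Cnr1*, the cannabinoid receptor, lay at 7.94 and 9.32 against 4.11 and 5.79 CPM (-0.86 ± 0.22, edgeR adjusted p = 0.00283). Of 24 growth factor and cytokine receptors 2 fell, the neurotrophin receptors *Ntrk2* (-0.87 ± 0.23) and *Ntrk3* (-0.77 ± 0.17), with edgeR adjusted p-values of 0.00374 and 0.000449. Both are markers of neurofilament neurons and lay at 15.2 CPM or less in these cells. *Ntrk2* lay at 927, 880, 840, and 728 CPM in the glia gate and at 2.09, 1.32, 0.632, and 0 CPM in Mrgprd neurons without *Fabp7*, and the part of glial RNA in its fall was not tested. Without the cells of shared barcodes *Oprl1* was called (1.23, edgeR adjusted p = 0.00939), and *Oprm1*, *Cnr1*, *Ntrk2*, and *Ntrk3* were not, with edgeR adjusted p-values of 0.334, 0.108, 0.140, and 0.0804.

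Neuropeptide genes rose in 4 of 11 tested cases and fell in 0, with a median change of 0.38. *Vgf*, a secreted granule protein, was the most abundant of the 4. It lay at 47.7 and 47.8 CPM in sham and at 81.7 and 98.4 CPM in CCI libraries (0.90 ± 0.09, edgeR adjusted p = 9.42e-18). It was found in 82.0% and 68.1% of sham and in 91.3% and 90.8% of CCI Mrgprd neurons, against 0 to 5.43% of the glia gate. These shares are not at matched depth, with medians of 45505 to 82948 UMIs in Mrgprd neurons and 4442 to 5429 in the glia gate.

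*Gal*, which encodes galanin, lay at 7.59 and 12.7 CPM in sham and at 32.1 and 45.2 CPM in CCI libraries. It rose by 1.95 ± 0.31 (edgeR adjusted p = 0.0203), and the share of cells with a UMI went from 17.2% and 16.9% to 82.5% and 81.5%. In the glia gate, which should lack it, *Gal* lay at 16.2, 5.04, 70.7, and 113 CPM, and other spared neurons held it at 428 to 725 CPM. With Mrgprd neurons thinned to 5000 UMIs the shares were 3.15%, 4.40%, 15.5%, and 20.0%, and in the glia gate they were 7.83%, 2.48%, 25%, and 45.3%. In both CCI libraries the share at matched depth was thus below that of the glia gate. Without thinning it was above that of the glia gate, and the part of free RNA in the *Gal* rise was not tested.

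*Nts* encodes neurotensin, and *Npy* a peptide induced by nerve injury. *Nts* lay at 1.43 and 3.31 CPM in sham and at 12.7 and 14.2 CPM in CCI libraries (2.64 ± 0.24, edgeR adjusted p = 1.17e-18), and at 0.954, 10.1, 38.1, and 32.6 CPM in the glia gate. Its thinned shares in CCI Mrgprd neurons, 4.85% and 6.15%, were below the 17.4% and 14.7% of the glia gate. *Npy* had 0 UMIs in 622 sham cells and 18 in CCI cells, at least 17.4-fold higher when 3 UMIs are taken for the sham group, and lay at 5.44 and 5.02 CPM in the glia gate of the CCI libraries. The levels of the glia gate rose along with these genes, and the part of free RNA in *Nts* and *Npy* was not tested.

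Of 31 tested genes of injury and regeneration 12 rose and 0 fell, with a median change of 0.33 against 0.00 over all genes, and DESeq2 called 3. The *Sprr1a* limit was part of the gate, and cells with more of it were left out. *Sox11*, a transcription factor of regenerating neurons, lay at 37.8 and 42.3 CPM in sham and at 66.7 and 62.9 CPM in CCI libraries (0.71 ± 0.09), and *Bdnf*, a neurotrophin, at 94.97 and 95.03 against 139.7 and 160.4 CPM (0.65 ± 0.08). These 2 were chosen after their values were seen, as the most abundant of the 12. *Nts*, *Gal*, and *Npy* are among the 12 as well. The largest fitted changes belonged to genes that were nearly absent in sham. *Sez6l* had 2 UMIs in sham and 20 in CCI libraries, a ratio of 29.0 (exact 95% interval of counting error 7.06 to 256), and *Ecel1*, an endopeptidase of injured neurons, had 2 and 17, a ratio of 24.7 (5.86 to 220.3). *Stmn4*, a stathmin, lay at 1.87 and 2.44 against 5.65 and 6.05 CPM (1.47 ± 0.29), with 71.4 to 134 CPM in other spared neurons. In CCI libraries 69.9% and 60% of the cells had a *Sprr1a* UMI, and whether the rises follow *Sprr1a* cell by cell was not tested.

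**Figure D5:**
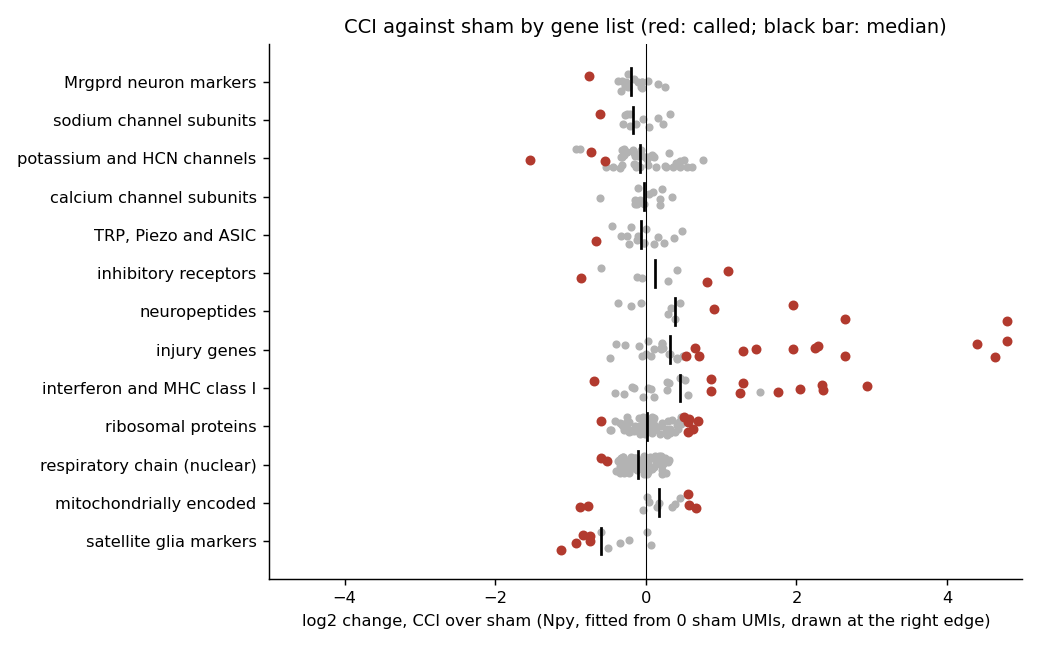
Log2 change CCI over sham (x axis) of every tested gene of 13 lists in Mrgprd neurons, red where called and grey otherwise, with a black bar at the median of the list. Injury genes and interferon and MHC class I genes have medians of 0.33 and 0.46, satellite glia markers of -0.60, and channel lists lie near 0.

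Interferon-stimulated genes, which cells switch on through the factors STAT and IRF as part of antiviral defence, formed another list with many calls. The share called was 40%, beside 45.5% of satellite glia markers, 38.7% of injury genes, and 38.5% of mitochondrially encoded genes. Of 25 interferon and MHC class I genes 9 rose and 1 fell, with a median change of 0.46, and DESeq2 called 4. *Usp18*, an enzyme that removes ISG15 from proteins, lay at 1.03 and 1.39 CPM in sham and at 5.00 and 7.63 CPM in CCI libraries (2.35 ± 0.33). *Rsad2*, the antiviral protein viperin, lay at 1.79 and 0.871 against 6.80 and 4.73 CPM (2.05 ± 0.31). *Irf7*, a transcription factor of the response, lay at 0.312 and 0.436 against 3.59 and 1.31 CPM (2.93 ± 0.52).

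*Isg15*, the ubiquitin-like modifier, lay at 1.87 and 1.74 CPM in sham and at 10.1 and 7.89 CPM in CCI libraries (2.34 ± 0.26), with CCI above sham in both sexes. *Ifit3* lay at 7.27 and 9.23 against 22.6 and 13.7 CPM (1.25 ± 0.16), and *Gbp7*, a guanylate-binding protein, at 6.07 and 4.27 against 13.1 and 13.2 CPM (1.29 ± 0.19). *Gbp2*, *Oasl2*, and *Bst2* were the other 3 that rose, by 1.76, 0.86, and 0.87. *Bst2* lay at 82.0, 164, 363, and 251 CPM in the glia gate. In Mrgprd neurons without *Fabp7* it lay at 12.2, 10.1, 25.3, and 22.2 CPM, and without *Sprr1a* UMIs at 13.2, 14.8, 18.3, and 15.4 CPM. The part of glial RNA in its rise was not tested. The edgeR adjusted p-values of the 9 genes ran from 2.07e-15 for *Isg15* to 0.0253 for *Gbp2*. No MHC class I gene of the list was called, *B2m* changing by 0.02 and *H2-D1* by 0.06, and *Irf1* fell by 0.69 on the log2 scale (edgeR adjusted p = 0.0416).

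The rise lay in few cells. At least 5 of the 9 genes were found in 4.01% and 2.56% of sham Mrgprd neurons and in 15.5% and 18.5% of CCI Mrgprd neurons, 16 and 12 cells. These cells held 65.7% and 65.8% of the UMIs of the 9 genes in CCI libraries, against 14% and 15.3% in sham libraries. Without them the 9 genes summed to 47.9 and 50.3 CPM in sham and to 54.4 and 50.2 CPM in CCI libraries, where with them they summed to 53.3, 57.6, 129, and 116 CPM. Of the 16 and 12 cells 14 and 10 had a *Sprr1a* UMI. Since the 9 genes were picked by their rise, these values describe where the rise lay and test nothing.

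*Isg15* was the most uneven of the genes, with 84.8% of its UMIs in 5 of 103 Male-CCI cells and 100% in 5 of 65 Female-CCI cells. It was found in 7.74%, 5.49%, 8.74%, and 7.69% of Mrgprd neurons and in 44.6%, 47.1%, 57.6%, and 56% of the glia gate, which expresses the gene and so gives no background for it. Among neurons without a *Sprr1a* UMI its change was -0.37, in the other direction, and it was not called (edgeR adjusted p = 0.915). Among neurons without *Fabp7*, a satellite glia gene, it was 4.52. Without the cells of shared barcodes *Isg15* changed by 1.88 and was called (edgeR adjusted p = 0.000476), and *Rsad2* changed by 1.34 and was not (edgeR adjusted p = 0.0529).

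Promoters of these genes are shown because interferon-stimulated genes are known to carry a response element in which the letters GAAA recur after 2 bases. RefSeq promoters of GRCm38.p6, 250 bases before to 50 after the start, were at hand for 21 of the 25 genes. GAAA, any 2 bases, and GAAA again were searched on both strands (TTTC, any 2 bases, and TTTC on the other), with overlapping matches allowed. They were found in 10 of the 21 genes, among them 6 of the 8 genes that rose and had a promoter, and in 1079 of 27025 genes in all (3.99%). The bases before the start site are printed for 4 genes that rose and for *B2m*, which holds the letters and was not called, with matches in capitals.
Isg15, chr4:156200819-156200918, minus strand: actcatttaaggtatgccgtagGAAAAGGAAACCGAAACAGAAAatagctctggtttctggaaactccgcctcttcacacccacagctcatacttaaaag
Gbp7, chr3:142530236-142530335, plus strand: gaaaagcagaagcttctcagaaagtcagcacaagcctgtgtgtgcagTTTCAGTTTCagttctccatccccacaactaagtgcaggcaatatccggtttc
Ifit3, chr19:34583363-34583528, plus strand: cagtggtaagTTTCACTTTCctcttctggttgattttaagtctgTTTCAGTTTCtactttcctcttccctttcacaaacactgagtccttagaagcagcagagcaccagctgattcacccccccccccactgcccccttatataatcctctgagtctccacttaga
Rsad2, chr12:26456453-26456582, minus strand: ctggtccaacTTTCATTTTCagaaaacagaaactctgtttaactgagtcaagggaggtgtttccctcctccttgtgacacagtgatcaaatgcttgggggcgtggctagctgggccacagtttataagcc
B2m, chr2:122147538-122147686, plus strand: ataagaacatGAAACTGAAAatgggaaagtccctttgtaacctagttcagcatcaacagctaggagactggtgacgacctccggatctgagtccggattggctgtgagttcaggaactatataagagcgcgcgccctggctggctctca
*Isg15* held 3 overlapping matches and *Ifit3* 2. *Irf7* and *Oasl2* rose without a match in this window. A match is a description of letters, not of binding.

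Apart from the lists, among the genes with the largest rises at 10 CPM or more were *Nts*, *Gal*, *Shf*, *Gbp7*, *Ifit3*, *Nme7*, *Smad7*, *Oprl1*, and *Alkal2*. *Shf*, an adaptor protein, lay at 8.30 and 5.84 CPM in sham and at 18.6 and 17.1 CPM in CCI libraries (1.30 ± 0.16). *Alkal2*, a ligand of the receptor ALK, lay at 21.2 and 27.6 against 55.0 and 42.1 CPM (1.06 ± 0.11) and was found in 54.4% and 49.4% of sham and in 70.9% and 69.2% of CCI Mrgprd neurons. *Nme7* rose by 1.10 and *Smad7*, an inhibitor of TGF-β signals, by 1.10.

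Among the largest falls were those of *Pcp4*, *Dcn*, *Cyp26b1*, *Fxyd1*, *Noc4l*, *Erg28*, *Nupr1*, *Selenop*, and *Insig1*. *Fxyd1* lay at 966 to 1239 CPM in the glia gate and at 0.144, 0.293, 0.211, and 0 CPM in Mrgprd neurons without *Fabp7*, so nearly all of its UMIs were in cells that also held this glial gene. *Cyp26b1*, which breaks down retinoic acid, was low in the other groups, with no more than 1.00 CPM in Mrgpra3, Nppb, and other spared neurons of any library. It lay at 24.5 and 30.0 CPM in sham and at 11.4 and 13.2 CPM in CCI libraries (-1.16 ± 0.14, edgeR adjusted p = 8.06e-13), and the share of cells with a UMI was 45.0% and 40.3% against 29.1% and 21.5%. *Nupr1*, a stress-induced nuclear protein, lay at 20.2 and 15.9 against 7.19 and 12.6 CPM and had no UMI in Mrgpra3 neurons or the glia gate. A count of 0 allows up to 4.32 CPM in Mrgpra3 neurons and 7.53 CPM in the glia gate, both in Female-CCI. The limit in Mrgpra3 neurons holds for *Cyp26b1* as well. *Insig1*, which restrains cholesterol synthesis, lay at 38.3 and 40.4 against 21.9 and 18.9 CPM (-0.91 ± 0.11).

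*Pcp4*, a calmodulin regulator, lay at 25.8 and 22.9 CPM in sham and at 2.31 and 1.84 CPM in CCI libraries (-3.50 ± 0.22, edgeR adjusted p = 3.17e-45). The 5 cells with most *Pcp4* held 73.5% and 73.0% of its UMIs in sham libraries, and the glia gate held 70.6, 33.6, 5.44, and 20.1 CPM. *Dcn*, a matrix proteoglycan, fell in the same way (-2.12 ± 0.26), with 80.9% and 82.6% of its sham UMIs in 5 cells. Other spared neurons held *Pcp4* at 359 to 671 CPM and *Dcn* at 94.8 to 114 CPM. When the 15% highest doublet scores were left out *Dcn* was no longer called, and the part of doublets in the *Pcp4* fall was not tested.

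Several called genes also differed between sham and CCI in the glia gate. *Erg28*, of sterol synthesis, lay at 104 and 102 CPM in sham and at 46.1 and 54.4 CPM in CCI Mrgprd neurons (-1.05 ± 0.09), and at 360, 363, 205, and 213 CPM in the glia gate. In Nppb neurons it lay at 57.3, 49.1, 43.5, and 51.0 CPM, where sham and CCI overlapped. The mitochondrially encoded *mt-Nd4l* lay at 333 and 350 against 182 and 191 CPM (-0.87 ± 0.07), and at 802, 953, 439, and 462 CPM in the glia gate, while *mt-Nd2* rose by 0.66 and was also higher in the glia gate of both CCI libraries. Of 79 ribosomal protein genes 6 rose and 1 fell, with a median of 0.02. *Rps12* lay at 446 and 445 against 749 and 686 CPM (0.69 ± 0.07) and *Rpl41* at 1968 and 2202 against 1470 and 1276 CPM (-0.60 ± 0.07). The glia gate held *Rps12* at 420, 408, 540, and 562 CPM and *Rpl41* at 2166, 2464, 1801, and 1480 CPM, so these genes differed between sham and CCI libraries in glia as well. Of 13 mitochondrially encoded genes 3 rose and 2 fell, and of 74 nuclear genes of the respiratory chain 0 rose and 2 fell, *Ndufa3* (-0.60) and *Ndufa1* (-0.52).

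Satellite glia markers fell in 5 of 11 tested cases and rose in 0, with a median change of -0.60. *Apoe* lay at 415 and 551 CPM in sham and at 297 and 278 CPM in CCI libraries (-0.74 ± 0.12). In Mrgprd neurons without *Fabp7*, *Apoe* changed by -0.23 and was not called (edgeR adjusted p = 0.481), nor was it without the cells of shared barcodes (-0.53, edgeR adjusted p = 0.393), and 300 genes were called in all. Of 13 immediate early genes 1 rose and 3 fell. *Dusp1* rose by 0.62, and *Zfp36*, *Ier3*, and *Egr1* fell, *Egr1* not in neurons without *Fabp7* (-0.01). *Ier3* lay at 58.02 and 51.0 against 31.2 and 31.8 CPM (-0.80 ± 0.10).

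Whether the change in Mrgprd neurons differed from that in other spared neurons of the same libraries was tested as a difference of the 2 effects, with library as a block. The test called 173 of 15549 genes, 1.11%, with 69 above and 104 below the change of other spared neurons (0.444% and 0.669%). Of 42 injury genes 3 were above and 10 below, with a median difference of -0.29. *Sdc1* (syndecan) lay at 27.6, 28.7, 26.3, and 34.3 CPM in Mrgprd neurons and at 6.83, 8.86, 24.4, and 31.0 CPM in other spared neurons, a difference of -1.77 ± 0.12 (edgeR adjusted p = 1.52e-23). *Plaur*, the urokinase receptor, lay at 8.18, 9.78, 10.4, and 9.49 CPM against 3.62, 4.81, 12.1, and 12.7 CPM (-1.41 ± 0.19). *Trpa1*, steady in Mrgprd neurons, lay at 17.2, 22.8, 37.5, and 60.1 CPM in other spared neurons (-1.28 ± 0.10), and *Gap43* at 642, 690, 1105, and 1204 CPM there (-0.59 ± 0.10). *Sox11* rose in Mrgprd neurons, and by less than in other spared neurons (-0.79 ± 0.09, edgeR adjusted p = 1.15e-10). The 3 injury genes above were *Npy*, *Gal*, and *Nts*. The other spared neurons are a mix of classes, and shifts in that mix between libraries move with these differences and were not tested.

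Among interferon and MHC class I genes 2 were above, 1 below, and 22 of 25 were not called, with a median difference of -0.15. *Isg15* (1.11 ± 0.25) and *Bst2* (0.59 ± 0.13) were above and *Ifit3* (-0.61 ± 0.17) below. None of the 18 Mrgprd neuron markers, of 79 ribosomal protein genes, or of 13 mitochondrially encoded genes was called by edgeR or DESeq2, and an unadjusted edgeR p below 0.05 was reached by 6, 0, and 4 of them. *Oprl1* lay at 7.10, 9.43, 14.3, and 21.6 CPM in Mrgprd neurons and at 11.6, 10.9, 10.5, and 9.11 CPM in other spared neurons, and the difference of the effects was 1.25 ± 0.21 (edgeR adjusted p = 0.000534). *Cnr1*, at 26.3 to 29.5 CPM in other spared neurons, differed by -0.92 ± 0.21, and *Kcnk18*, the two-pore channel TRESK, by 0.54 ± 0.11 with 48.5, 38.8, 62.1, and 55.9 CPM in Mrgprd neurons.

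Against Mrgpra3 neurons the same test called 5 of 11078 genes, 0.0451%, with 3 above and 2 below (0.0271% and 0.0181%), and DESeq2 called 1. An unadjusted edgeR p below 0.05 was reached by 779 genes, and only 12 and 15 Mrgpra3 neurons stood behind the CCI libraries. *Pdlim2*, a scaffold protein, lay at 300.1, 264, 446, and 354 CPM in Mrgprd neurons and at 299.97, 264, 188, and 106 CPM in Mrgpra3 neurons, so the groups were level in sham and apart in CCI (difference 1.45 ± 0.12, edgeR adjusted p = 1.72e-07). *Mgll*, which breaks down the endocannabinoid 2-AG, lay at 30.3, 22.1, 61.3, and 32.1 against 50.1, 33.3, 27.9, and 17.3 CPM (1.76 ± 0.24, edgeR adjusted p = 0.000737).

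Female and male Mrgprd neurons differed in 5 of 11673 genes (0.0428%) by edgeR, all of them on a sex chromosome, with 1 higher and 4 lower in female libraries (0.00857% and 0.0343%), while 116 genes had an unadjusted p below 0.05 and DESeq2 called 6. This fit did not include surgery. With surgery as a block 22 genes were called, 12 higher and 10 lower in female libraries, and 798 had an unadjusted p below 0.05. *Xist*, which silences one X chromosome, lay at 0.0446, 206, 0.257, and 201 CPM. *Ddx3y*, *Eif2s3y*, and *Kdm5d*, Y-linked genes, had 878, 1131, and 187 UMIs in male and 0 in female libraries, at least 149-fold, 192-fold, and 31.8-fold higher when 3 UMIs are taken for the female group, and *Uty* had 293 and 1. The sex labels of all 4 libraries matched these levels. None of the genes of the lists was called by edgeR. With surgery inside each sex, a difference between sexes in the response to CCI rests on single libraries and was not tested.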

How the data were processed

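Each library was 1 droplet scRNA-seq run. The authors aligned reads to mm10 and deposited whole UMI counts per gene (31053) and cell, without normalization, for 23691 cells. The Cell Ranger version is given as 2.1.1 in the submitters' notes and as 3.0.2 in the matrix header. Here, UMI counts were summed over the gated cells of each library. edgeR 4.0.16 (filterByExpr, TMM, robust quasi-likelihood test, Benjamini-Hochberg) compared libraries. Genes were called at an adjusted p below 0.05 and an absolute log2 change above 0.5, the 4 gate genes excepted. CP10K is UMIs per 10000 UMIs of a cell. The members and gene lists were chosen with earlier results of these data known. Genes were named where they are markers, are up to 4 called genes of a list with the largest change (2 most abundant where none was called), or are the 10 (other comparisons: 5) largest rises and falls at 10 CPM or more with the same direction in both sexes. A few genes that the rule names are not reported here. Genes named outside this rule are said to be so or serve as levels. Males and females of a litter had one kind of surgery, so the male and female libraries of a surgery are not independent of litter. The p-values measure the spread between libraries and need not cover the spread between litters. Scripts were tested on simulated data. Gene positions are from GENCODE (GRCm38), promoters from RefSeq. DESeq2 1.42.0, R 4.3.3, Python 3.11.15, and scanpy 1.11.5 were also used.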

Additional observations from a re-analysis of the deposited data

Results flagged for a closer look

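The results below were taken up because the effect of CCI differed between cell classes by a test of the difference itself. Between Mrgprd neurons and other spared neurons 173 genes differed. Among those at 10 CPM or more in a group and with the same direction in both sexes, the 5 largest differences above were those of *Dcdc2a* (1.76), *A4galt* (1.64), *Gal* (1.35), *Fbp2* (1.27), and *Oprl1* (1.25), and the 5 largest below those of *Creb5* (-4.33), *Pcp4* (-2.95), *Tnfsf12* (-2.67), *Dcn* (-2.23), and *Ly6h* (-1.97), all on the log2 scale. In CCI Mrgprd neurons the share of cells with *Gal* at matched depth (15.5% and 20.0%) was below that of the glia gate (25% and 45.3%). The *Gal* rise was not called with RLE normalization, and the part of free RNA in it was not tested. Most of these genes were low in Mrgprd neurons and high elsewhere. *Creb5* lay at 1.26, 0.952, 0, and 0.263 CPM in Mrgprd neurons and at 10.9, 11.7, 17.3, and 16.3 CPM in other spared neurons, and *Ly6h* at 2.02, 1.12, 0.510, and 0.263 CPM against 77.7 to 88.8 CPM. *Tnfsf12* had 59 UMIs in sham and 3 in CCI Mrgprd neurons, a CCI to sham ratio of 0.148 (exact 95% interval of counting error 0.0296 to 0.453). *A4galt* (0.719, 0.433, 1.78, and 1.05 CPM) and *Dcdc2a* (0.764, 0.346, 1.66, and 1.05 CPM) were as low, *Fbp2* (4.31, 3.20, 7.26, and 5.01 CPM) somewhat higher. Fitted values of genes with so few UMIs depend on the prior count. Against Mrgpra3 neurons 5 genes differed, among them *Mgll* (1.76), *Pdlim2* (1.45), and *Ppm1j* (-1.57). *Ppm1j*, a phosphatase, lay at 195, 163, 173, and 160 CPM in Mrgprd neurons and at 23.3, 25.3, 91.3, and 41.7 CPM in Mrgpra3 neurons.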

How the results depend on the processing

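For CCI against sham, 436 genes became 116 with DESeq2, 54 in members with 0 *Sprr1a* UMIs, 33 with members thinned to 5000 UMIs, and, by alternatives added after the data were seen, 674 with *Mrgprd* at 1 CP10K or more and 256 without barcodes of other libraries. DESeq2 gave no adjusted p for 4752 of the 11673 genes, and these count as not called. Of the 436 genes, 408 could be tested without *Sprr1a* UMIs, of which 400 kept their sign and 46 were called. Leaving out 1 library gave 346 to 392 genes, but of the 436 only 243 were called again without Male-Sham, 267 without Female-Sham, 214 without Male-CCI, and 265 without Female-CCI. Of 220 genes tested after thinning 209 kept their sign. Among named genes, the values that turned were *Isg15* (-0.37) and *Kcnk2* (0.060) without *Sprr1a* UMIs and *P2ry1* (0.70) after thinning. Both settings leave fewer UMIs. The first also removes 14 of 16 Male-CCI and 10 of 12 Female-CCI cells with at least 5 of the 9 interferon genes. The cause was not tested. Over the alternatives for this comparison, 868 values of named genes stayed on their side of the threshold, 146 lost the call, and 4 gained it, *Gal* losing it with RLE normalization and with *Mrgprd* at 1 CP10K or more. Values without an adjusted p were left out of these counts.

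The difference from other spared neurons fell from 173 genes to 38 with DESeq2, and leaving out 1 library gave 131 to 215. Here DESeq2 gave no adjusted p for 4825 of 15549 genes. Against Mrgpra3 neurons 5 genes became 1 with DESeq2, 39 without the filter on low counts, and 12 to 112 when 1 library was left out, 12 without Male-Sham, 33 without Female-Sham, 60 without Male-CCI, and 112 without Female-CCI, so this count rests on single libraries. Female against male gave 13 genes without the filter and 3 to 7 when 1 library was left out, 3 without Female-Sham. The share of Mrgprd neurons moved to 14.6%, 10.8%, 4.86%, and 4.11% at 1 CP10K and to 0.263%, 0.125%, 0%, and 0.0243% at 10 CP10K, where CCI against sham was not run since CCI libraries had 0 and 1 cells.

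Deviations from the mean of each surgery correlated at 0.169 between same-sex libraries. With 2 libraries per surgery the male and female deviations mirror each other, so both same-sex pairs give the same value by construction. The libraries of a pair share sex, and the labels name no animal or batch in common. With sex as a replicate block 455 genes were called for CCI against sham, and with surgery as a block 22 for female against male. In Mrgprd neurons of Female-CCI a count of 0 allows a level of up to 0.790 CPM.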
